A study of Mus musculus with 18 samples.

Results

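The transcriptomes of 3 mouse pancreatic ductal adenocarcinoma lines, PD454, PD7591 and PD883, were compared after 48 h with TGFb at 10 ng/ml or with DMSO. Libraries were taken by their treatment label: 6 TGFb and 6 DMSO libraries, 12 of the 18 in the series, with 2 libraries per line and treatment and the line as a block. The other 6 libraries, cells given ionomycin (a calcium ionophore) at 2.5 uM for 48 h, share the estimate of the spread and serve here only to show where the TGFb libraries differed from another treatment. All groups grew in the same rich medium, which held dexamethasone (a synthetic glucocorticoid), cholera toxin (which raises cyclic AMP), thyroid hormone, insulin with transferrin and selenium, nicotinamide, pituitary extract, added glucose, a trypsin inhibitor, antibiotics and Nu-serum. The labels give a mixed strain background, name no engineered allele, and do not say whether the TGFb cultures also received solvent or whether the paired libraries came from separate cultures, so p-values measure a spread between libraries that may be technical.

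TGFb is a secreted cytokine that assembles type II and type I receptor kinases at the cell surface. The activated receptors phosphorylate SMAD proteins, which enter the nucleus and act with partner transcription factors, and they also feed into MAP kinase signalling. In pancreatic carcinoma cells that keep SMAD4 it is best known for growth arrest, for the epithelial-mesenchymal transition (EMT, in which epithelial cells lose their junctions and keratins) and for matrix secretion. The description below takes those classic genes briefly, as a check of the label, and then goes to the rest of the transcriptome.

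Library totals ran from 17591005 to 37894692 counts, and of 24527 genes listed, 13827 passed the filter on low counts and were tested. Levels are counts scaled to library size (CPM), not scaled to gene length, so they compare libraries for a gene and not genes with each other; they are given as the median of the 6 libraries with the lowest and highest in brackets, and log2 fold changes are TGFb minus DMSO with the standard error after ±. In a principal component analysis of the 12 libraries the first component (51.6% of the variance) was almost wholly a difference between treatments, which made up 97% of it, and later components separated the lines. Markers of ductal carcinoma summed to 5500 to 8850 CPM with DMSO and 5330 to 7790 CPM with TGFb, carried mostly by keratin genes. The similar sums hid changes in single markers, since 7 of the 14 fell and 4 rose. Krt19 went from 126606 to 2403 counts, and Spp1, which is not a keratin, from 29904 to 123700. Epcam, an epithelial adhesion molecule, was at a median of only 2.76 (2 to 3.45) CPM with DMSO. Summed fibroblast markers were 8.63 to 39.7 CPM with DMSO and 13.8 to 149 CPM with TGFb, smooth muscle and pericyte markers 7.06 to 14.2 and 22.7 to 44.3 CPM, immune markers 35.4 to 80.8 and 21 to 41.7 CPM, acinar markers 0.174 to 2.34 and 2.89 to 6.5 CPM, and endothelial markers 1.44 to 2.8 and 1.49 to 2.91 CPM. Cela1 (79 counts with DMSO, 549 with TGFb) carried the acinar sum, while the acinar marker Bhlha15 had fewer counts with TGFb (73 and 28). The immune genes Cd3d, Cd8a and Ms4a1, the acinar genes Prss1, Cpa1 and Pnlip and the endocrine genes Ins1, Ins2 and Sst had 0 counts in all 12 libraries. In bulk RNA, fewer cells of a type and less RNA per cell cannot be told apart.

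The response reached across the transcriptome. At an adjusted p under 0.05 (edgeR quasi-likelihood F test, Benjamini-Hochberg adjustment over all genes tested), 7015 genes differed, 50.7% of those tested: 3356 were higher with TGFb (24.3%) and 3659 lower (26.5%). A change of at least 1 on the log2 scale was reached by 1228 higher genes (8.88%) and 1708 lower genes (12.4%), and 6646 of the 7015 (94.7%) had the same sign in each of the 3 lines. The 6 TGFb libraries did not overlap with the 6 DMSO libraries in 1135 genes where TGFb was above (8.21%) and 1301 where it was below (9.41%). Of the 13575 tested genes outside the lists of EMT, SMAD, matrix and actin genes, 6833 were called. Nearly all genes tested lie outside those lists, so this count does not show that the response favoured them. Since 50.7% of all genes were called, counts for any group of genes below are to be read against 24.3% higher and 26.5% lower.

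**Figure D1:**
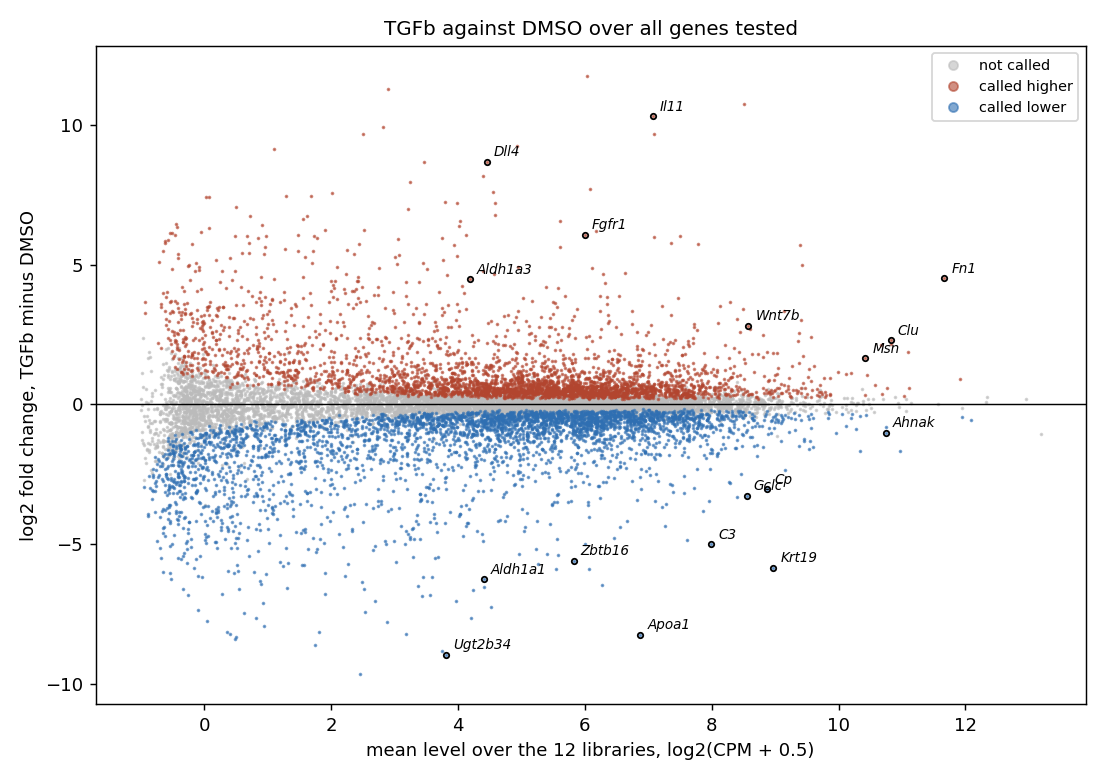
Log2 fold change of TGFb minus DMSO (vertical axis) against the mean level over the 12 libraries (horizontal axis, log2 of CPM plus 0.5) for the 13827 genes tested, with the 3356 called higher in red, the 3659 called lower in blue and the rest in grey. Large changes occur in both directions at all but the highest levels, and Il11 at 10.31 and Apoa1 at -8.25 are 2 of the genes named.

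The classic targets moved as a group. In the list of epithelial junction and identity genes 30 of 47 tested members fell and 6 rose, and in the list of mesenchymal markers and EMT factors 17 of 26 rose and 1 fell. Fibroblast markers summed to more in some TGFb libraries, as given above. Col1a1 (271 counts with DMSO, 5127 with TGFb), Fbln1 (2358 and 3652) and Pdgfrb (9 and 705) carried that sum, while Dcn (27 and 35), Lum (2 and 5), Fap (6 and 2), Thy1 (8 and 4) and Col1a2 (40 and 52) were near 0 in both groups. Pmepa1, a SMAD target that limits the pathway, went from a median of 148 (102 to 169.8) CPM to a median of 734 (681 to 898) CPM, with a log2 fold change of 2.47 ± 0.12. Fn1 (fibronectin) rose by 4.50, Snai1 (an EMT transcription factor) by 3.39 and Smad7 (the inhibitory SMAD) by 1.80 on the log2 scale, with no overlap between the groups for any of them. Cdh1 (E-cadherin) fell by 3.34 and Krt19 (a ductal keratin) by 5.86. Not every marker followed: Vim (vimentin) was already at a median of 1721 (1088 to 2876) CPM with DMSO and gave 0.25 (adjusted p = 0.233), or 0.57 (adjusted p = 0.00548) without PD883, 0.43 (0.0188) without DMSO PD883 library 7 and 0.28 (0.0459) in a fit with a mean for each group. Zeb1, another EMT transcription factor, rose by 0.81, with groups that overlapped and no call within PD7591 (0.41, adjusted p = 0.139). The receptor gene Tgfbr2 fell by 1.44.

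A junction gene moved against its list. Cldn4 (claudin-4, a tight junction protein of ducts) was at 0 to 0.218 CPM with DMSO and at a median of 60.5 (19.6 to 108) CPM with TGFb, a log2 fold change of 9.26 ± 0.40 (adjusted p = 2.19e-12). All 6 TGFb libraries stood far above all 6 DMSO libraries while Cdh1 and Krt19 went the other way.

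**Figure D2:**
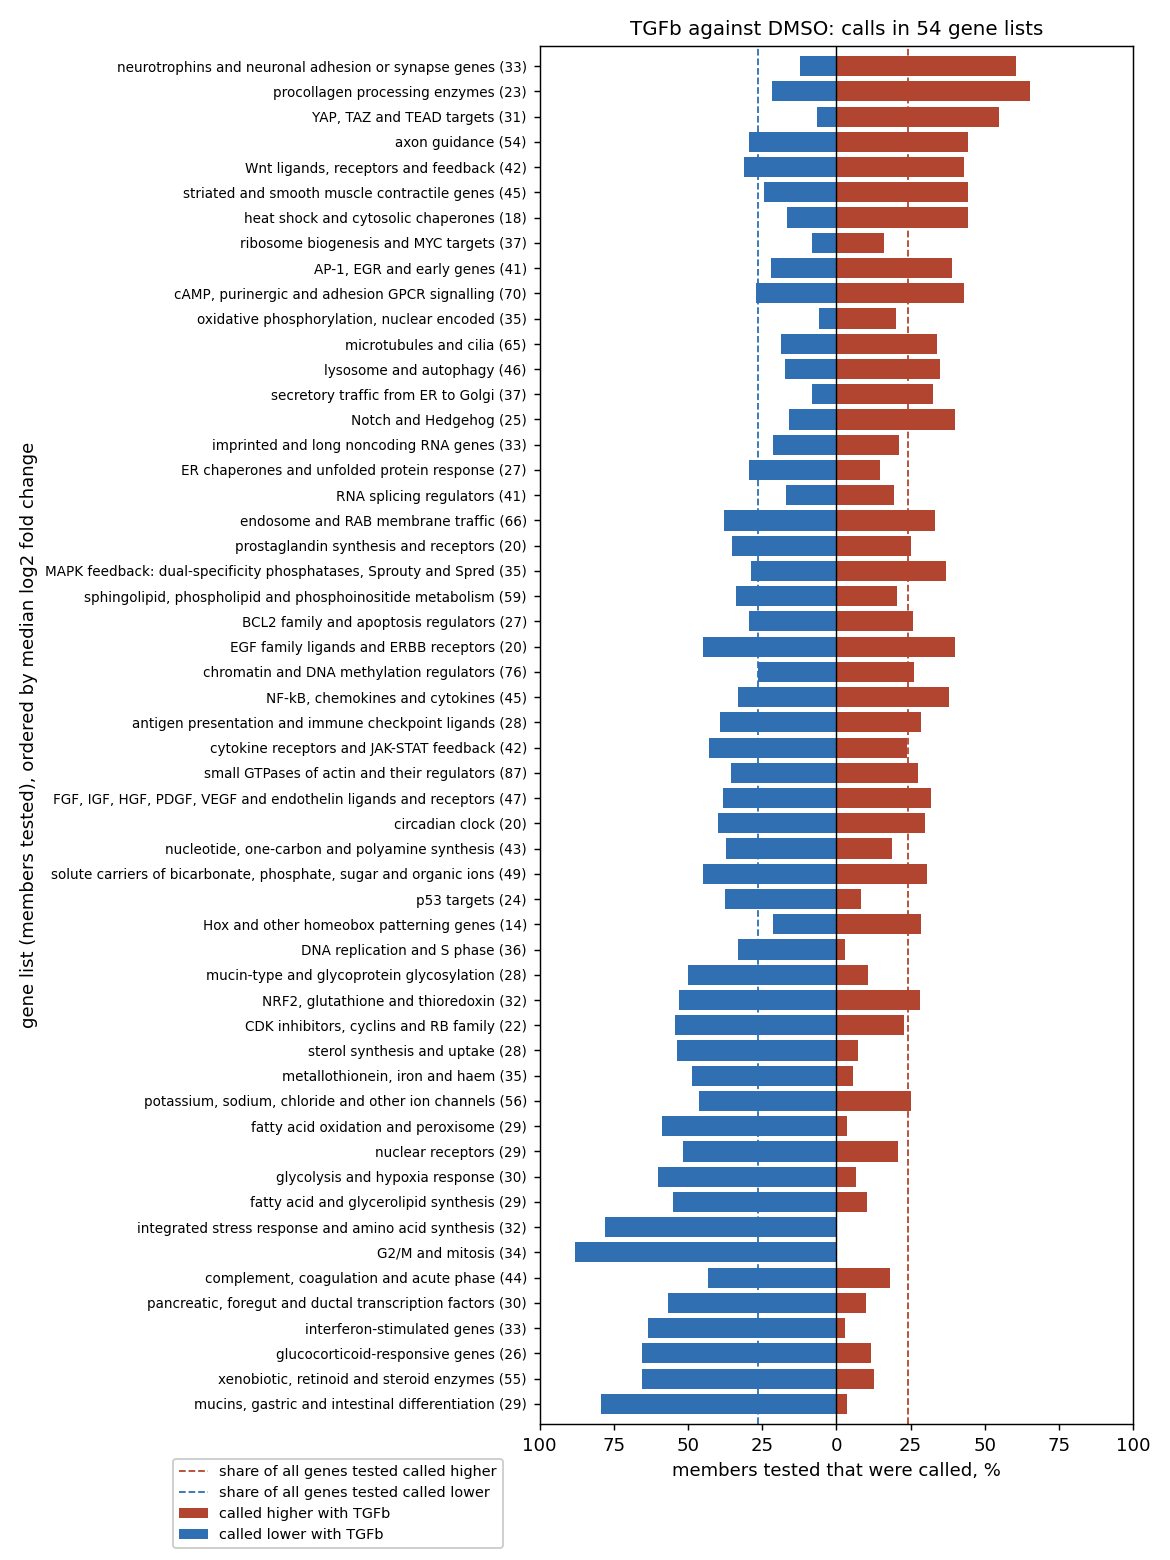
Percentage of tested members called lower (blue, to the left) and higher (red, to the right) with TGFb in each of 54 gene lists outside the classic EMT, SMAD, matrix and actin lists, ordered by the list's median log2 fold change. Dashed lines mark the shares among all genes tested, 26.5% lower and 24.3% higher; the gastric list, at 79.3% lower, and the neuronal list, at 60.6% higher, lie at the ends of the order.

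The list with the lowest median of the 54 was that of foregut differentiation. Of 51 genes listed for mucins and for gastric and intestinal differentiation, 29 were tested. Of these 23 fell and 1 rose, with a median log2 fold change of -3.59. A gene near 0 with TGFb passed the low-count filter only where another group was higher, so this count and median can lean towards fallers. Gkn2 (gastrokine 2, secreted by stomach surface cells) lay at a median of 0.957 (0.32 to 18.4) CPM with DMSO and had 1 count in all 6 TGFb libraries together against 909 with DMSO, a ratio of 963.9 with an exact 95% interval for counting error of 172.6 to 38110. The DMSO counts came mostly from PD454, at 13.2 and 18.4 CPM against 0.32 to 0.96 CPM in the other 4 libraries. The ratio was 418.9 without DMSO PD454 library 14, and without PD454 there were 56 counts against 0, at least 23.01-fold lower with TGFb when the TGFb group is set to 3 counts. Dmbt1 (a mucosal scavenger protein) went from a median of 22.1 (8.24 to 106) CPM to a median of 0.122 (0.0465 to 0.398) CPM and fell by 7.65 on the log2 scale, and Cdhr5 (a cadherin of the brush border) by 5.65. For each of these 3 genes every TGFb library was below every DMSO library.

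The glycan-building enzymes that dress mucins went the same way, with 14 of 28 tested members lower and 3 higher. Fut2, which makes the terminal fucose of secretor glycans, had 787 counts with DMSO and 2 with TGFb, a ratio of 417.3 (exact 95% interval 115.1 to 3451, and 273.8 without PD7591 to 722.2 without TGFb PD454 library 17). Gcnt3 and Gcnt1, which branch mucin-type O-glycans, fell by 3.16 and 2.78. One gastric gene rose: Ctse (cathepsin E) by 1.30 ± 0.23, with groups that overlapped although it was higher in each line, and with PD454 at the highest level under both treatments.

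Transcription factors of pancreas and foregut were lower too: 17 of 30 tested fell and 3 rose (median -0.98). Hnf4a, a nuclear receptor that drives gut and liver genes, went from a median of 335 (299.6 to 432) CPM to a median of 50.6 (23.5 to 197) CPM, a fall of 2.31. PD454 kept the most of it, with a fall of 1.09 against 2.71 in PD7591 and 3.51 in PD883. Foxa2 (a pioneer factor of endoderm) fell by 2.45, the GATA factors Gata5 and Gata4 of endoderm by 4.22 and 1.23 and Pdx1 (the pancreas specification factor) by 1.92. The 3 that rose included Sox9 (a factor of ducts and progenitors), from a median of 21.5 (5.8 to 49.7) to a median of 96 (53.4 to 158) CPM (2.40 ± 0.33), and Hes1 (a Notch effector, 1.38).

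Plasma proteins, which liver makes in bulk and which these cells also transcribed, were among the deepest falls. Of 44 tested genes for complement, coagulation and acute phase proteins 19 fell and 8 rose. Apoa1, the main protein of high-density lipoprotein, was at a median of 219 (64.8 to 545) CPM with DMSO and a median of 0.357 (0.0996 to 2.75) CPM with TGFb (log2 fold change -8.25 ± 0.44, adjusted p = 4.47e-11). Complement C3 went from a median of 409.9 (94.3 to 1290.0) to a median of 8.73 (4.01 to 16.8) CPM, a fall of 5.02 that ranged from 2.90 in PD454 to 7.40 in PD883. Cfb (complement factor B) fell by 2.95, Cp (ceruloplasmin, the copper-carrying oxidase) by 3.05 and Itih2 (an inter-alpha-trypsin inhibitor chain) by 6.86. Ttr (transthyretin) fell by 5.48, and by 8.05 without TGFb PD883 library 12, which held 2.75 CPM when the other 5 were at 0 to 0.211 CPM. Clu (clusterin, a secreted chaperone) ran against these genes, from a median of 570.3 (479 to 807) to a median of 2974 (2293 to 3751) CPM, and was among the 10 most abundant of the changed genes by CPM.

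Detoxifying and retinoid-handling enzymes fell together. In the list of xenobiotic, retinoid and steroid enzymes 36 of 55 tested members were lower, 33 of them by at least 1 on the log2 scale, and 7 were higher (median -1.75). Ugt2b34, a glucuronosyltransferase, had 3342 counts with DMSO and 7 with TGFb, and fell by 8.97; reads may be split with its near-identical family members. Sult1d1, a sulfotransferase, went from a median of 16.6 (9.38 to 28.6) to a median of 0 (0 to 0.177) CPM, and Sult1a1, a phenol sulfotransferase, fell by 7.26. The enzymes that make retinoic acid moved in opposite directions. Aldh1a1, a retinaldehyde dehydrogenase, fell from a median of 44.3 (10.7 to 72.1) to a median of 0.541 (0 to 1.01) CPM (-6.27 ± 0.29), while Aldh1a3, which catalyses the same step, rose from a median of 2.15 (0.218 to 2.85) to a median of 34.4 (28.9 to 36.5) CPM (4.48 ± 0.38). For both enzymes the groups did not overlap. Crabp2, which carries retinoic acid to the nucleus, rose by 3.17 at a low level. It went from a median of 0.0721 (0 to 0.329) to a median of 0.763 (0.317 to 1.63) CPM. Its groups overlapped, and it was not called within PD454 (adjusted p = 0.173).

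Genes of glutathione metabolism went both ways. Gclc, the catalytic subunit of the rate-limiting enzyme of glutathione synthesis, went from a median of 627 (565 to 895) CPM to a median of 62.8 (58.1 to 91.4) CPM (log2 fold change -3.28 ± 0.14, adjusted p = 2.53e-12). Its partner subunit Gclm fell by only 0.81. Over the list of NRF2, glutathione and thioredoxin genes 17 of 32 fell and 9 rose, the risers including Ggct (which recycles gamma-glutamyl peptides, 1.82) and Hmox1 (haem oxygenase, 1.54).

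Metal handling was lower, with 17 of 35 metallothionein, iron and haem genes down and 2 up. Mt2 and Mt1, which bind zinc and copper, fell from a median of 508 (159.8 to 1014) and a median of 255 (142 to 804) CPM to a median of 58.3 (36.5 to 109.9) and a median of 80.6 (45.4 to 109) CPM, or by 2.79 and 1.91. Mt1 fell by 1.27 when PD883 was left out. Slc40a1 (ferroportin, the iron exporter) fell by 2.58. Atp1b1, a subunit of the sodium pump, fell by 2.30, from a median of 439 (302 to 503) to a median of 81.1 (71.6 to 106) CPM.

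**Figure D3:**
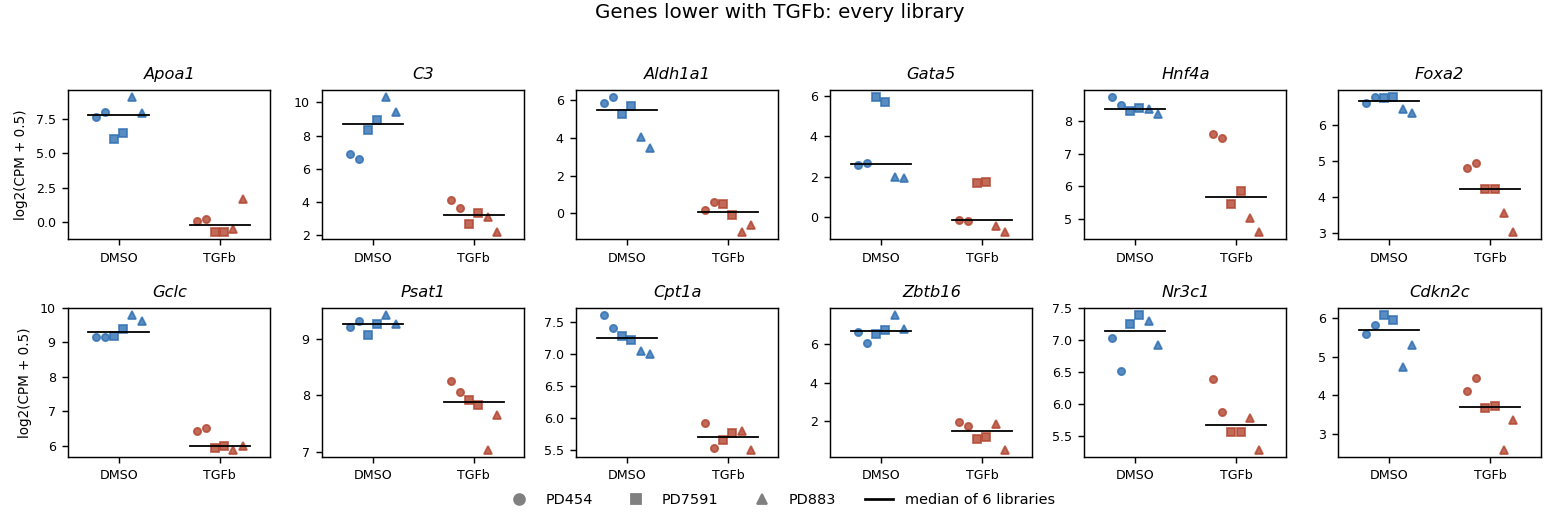
Level of 12 genes that were lower with TGFb, in each DMSO (blue) and TGFb (red) library, as log2 of CPM plus 0.5, with circles, squares and triangles for PD454, PD7591 and PD883 and a bar at the median of 6 libraries. In every panel the 6 TGFb libraries lie below the 6 DMSO libraries, and for Hnf4a the PD454 libraries keep the highest level with TGFb.

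Genes of amino acid supply were lower with TGFb. In the list of integrated stress response and amino acid synthesis genes, targets of the ATF4 transcription factor, 25 of 32 tested members fell (median -0.71), 11 of them by at least 1. With libraries left out one at a time the count of lower members was 22 to 25, and with lines left out 19 to 23. Psat1, in the serine synthesis pathway, went from a median of 613 (540.1 to 691) CPM to a median of 235 (130.1 to 304) CPM (log2 fold change -1.46 ± 0.14, adjusted p = 1.04e-07). Slc7a5, which imports leucine and other large amino acids, fell by 1.62, Slc1a4 (an alanine, serine and cysteine carrier) by 0.96 and Stc2 (stanniocalcin 2, a stress-induced secreted protein) by 3.48. None of the 4 had overlapping groups.

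Lipid metabolism was lower on the synthesis and on the oxidation side. Of 29 tested genes for fatty acid and glycerolipid synthesis 16 fell and 3 rose, and of 29 for fatty acid oxidation and the peroxisome 17 fell and 1 rose. Cpt1a, the gate for fatty acids entering mitochondria, went from a median of 151 (127 to 195) to a median of 51.9 (44.8 to 59.9) CPM (-1.56 ± 0.09, adjusted p = 1.75e-10), with 6 of 6 TGFb libraries below every DMSO library. Ppargc1a, a coactivator of mitochondrial genes, fell by 3.79 at a low level. Acss2 and Acsl5, which activate acetate and long-chain fatty acids with coenzyme A, fell by 2.54 and 1.48. Plin2, the coat protein of lipid droplets, rose from a median of 63.5 (43.3 to 76.2) to a median of 283 (168 to 359.9) CPM (2.18 ± 0.19). In sterol synthesis and uptake 15 of 28 fell and 2 rose: Lss (lanosterol synthase) fell by 1.23, and Abcg1, a cholesterol exporter, rose by 3.70, with its highest levels in PD883. The count of lower genes for fatty acid oxidation dropped from 17 to 11 when PD883 was left out.

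Glycolysis and hypoxia genes were mostly lower, with 18 of 30 down and 2 up; without PD883, 11 were down. Pfkp, a phosphofructokinase, fell by 1.38, Slc16a1 (the lactate and proton carrier) by 1.09 and Epas1 (HIF-2 alpha, an oxygen-sensing transcription factor) by 2.73. The members that rose were Vegfa (the angiogenic growth factor), from a median of 209 (147 to 369.8) to a median of 1219.9 (562 to 1465) CPM (2.26 ± 0.20), and Pfkfb4 (a regulator of phosphofructokinase), from a median of 5.09 (4.36 to 6.06) to a median of 45.9 (34.7 to 58.3) CPM (3.18 ± 0.21). For both genes every TGFb library was above every DMSO library. Of 35 nuclear-encoded respiratory chain genes 7 rose (20%) and 2 fell (5.71%). The 7 became 14 when 4 libraries were left out together. These were DMSO libraries 14 of PD454 and 8 of PD883 and TGFb libraries 18 of PD454 and 12 of PD883. They were picked as rich in short transcripts, for which no value is given here. The 7 became 11 without DMSO PD454 14, 4 without DMSO PD7591 2, DMSO PD883 7 or TGFb PD7591 6, and 0 without PD7591. No direction is therefore read from the respiratory chain list.

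Cell division genes fell. In the list of G2/M and mitosis genes 30 of 34 tested were lower, with a median of -0.76. Mki67, the proliferation marker, went from a median of 608 (322 to 888) to a median of 207 (103 to 472) CPM (-1.49 ± 0.18), and Ect2 and Ccna2, needed for cytokinesis and for entry into mitosis, fell by 1.33 and 1.26. The groups overlapped for all 3, and each gene was lower in each line. Among genes of DNA replication 12 of 36 fell and 1 rose: Rrm2 (ribonucleotide reductase) fell by 1.63, E2f2 (a cell-cycle transcription factor) by 2.10 and Lig1 (a DNA ligase) by 0.84. That count was 23 without PD883, 21 without DMSO PD883 library 7 and 7 without PD7591.

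Inhibitors of cyclin-dependent kinases did not share a direction. Cdkn2b (p15), the classic TGFb-induced inhibitor, rose from a median of 57.6 (47.6 to 63.3) to a median of 164 (142 to 215) CPM (1.57 ± 0.10, adjusted p = 2.66e-10). Cdkn2c (p18) fell from a median of 51.5 (25.9 to 67.4) to a median of 12.5 (5.48 to 21.3) CPM (-1.95 ± 0.17), Cdkn1b (p27) fell by 1.16 and Cdkn1a (p21) by 1.37. The log2 fold change of Cdkn1a was -2.64 in PD883, -1.08 in PD454 and -0.57 in PD7591, and -0.81 over the other lines when PD883 was left out. Cdk4 rose by 0.48. Myc, which TGFb is known to repress in many epithelia, gave 0.40 ± 0.14 (adjusted p = 0.0254). That call was lost with the duplicate libraries summed (adjusted p = 0.165). The same held when the 4 libraries named above (14 and 18 of PD454, 8 and 12 of PD883) were left out together (0.0512). It was also lost without PD7591 (adjusted p = 0.137), PD883 (0.14), DMSO PD883 library 8 (0.0503), TGFb PD7591 library 5 (0.066) or TGFb PD7591 library 6 (0.0554). Among regulators of apoptosis 8 of 27 fell (29.6%; 5 without PD7591) and 7 rose (25.9%), with the survival gene Bcl2l1 (Bcl-xL) at a median of 355 (288 to 575) CPM with DMSO and a median of 109 (89.5 to 139) CPM with TGFb (a fall of 1.76).

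Glucocorticoid-responsive genes were mostly lower. The medium held dexamethasone in all groups, and the response to the hormone itself was not tested. Of 26 genes known to respond to glucocorticoids 17 fell, 15 of them by at least 1, and 3 rose (median -1.48). Zbtb16, a zinc finger factor strongly induced by glucocorticoids, went from a median of 103 (66 to 186) to a median of 2.32 (0.934 to 3.38) CPM (log2 fold change -5.59 ± 0.30, adjusted p = 4.34e-11). Klf15 (a metabolic Kruppel-like factor) fell by 6.84, Tsc22d3 (GILZ, an anti-inflammatory mediator) by 2.05, Per1 (a clock repressor that glucocorticoids induce) by 1.52 and Fkbp5 (a chaperone of the glucocorticoid receptor) by 1.54. The receptor gene itself, Nr3c1, was at a median of 141 (91.3 to 168) CPM with DMSO and a median of 50.7 (38.4 to 83.2) CPM with TGFb, a fall of 1.34 ± 0.17 with no overlap.

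Other nuclear receptors fell more often than they rose, 15 against 6 of 29 tested (9 fell without PD7591). Pparg, a receptor for fatty acid ligands, fell by 3.59, and Nr1h4 (FXR, the bile acid receptor) by 3.22, from a median of 32.7 (17.2 to 102) to a median of 5.38 (1.44 to 7.07) CPM. Vdr, the vitamin D receptor, rose by 1.81 at a low level. Clock genes split 8 down and 6 up of 20, with Npas2, a partner of the clock activator, down by 5.16 and Bhlhe40, a clock repressor, up by 1.48. Npas2 fell by 3.59 without PD883.

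Interferon-stimulated genes were lower in 21 of 33 tested members and higher in 1 (median -0.99). Oas3, which senses double-stranded RNA, went from a median of 8.01 (1.17 to 26.2) to a median of 0.0781 (0 to 0.264) CPM, a fall of 6.60, and Stat2, a transducer of the interferon signal, fell by 0.91 ± 0.12. Oasl2 was the exception, with 1.84 ± 0.46. In antigen presentation 11 of 28 fell and 8 rose. Tap2, the peptide transporter, fell by 1.96 and the class I heavy chain gene H2-K1 by 1.09, where reads may be shared with other class I genes. B2m, the light chain of class I, rose by 1.04 ± 0.15, and the lipid-presenting Cd1d1 rose from a median of 1.65 (1.25 to 1.97) to a median of 17.4 (11.7 to 25) CPM (3.45). The lower immune marker sum with TGFb, given above, was carried by Cd14, a receptor for bacterial lipopolysaccharide (7761 counts with DMSO, 3734 with TGFb). Of the other 16 immune markers none reached more than 108 counts in either group, and Csf1r (45 and 72) and Lyz2 (39 and 43) were not lower.

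In the list of NF-kB, chemokine and cytokine genes 17 of 45 rose and 15 fell, and the family of interleukin-6 held one of the deepest rises of all. Il11, an interleukin-6 family cytokine linked to fibrosis (GRCm38.p6 chromosome 7, 4772373 to 4782907), was at a median of 0.192 (0.0454 to 0.603) CPM with DMSO and at a median of 269 (124 to 396) CPM with TGFb, 29 counts in all against 35798 (log2 fold change 10.31 ± 0.38, adjusted p = 4.6e-13). The rise was 9.69, 10.64 and 11.38 in PD454, PD7591 and PD883. Lifr, the receptor of the related cytokine LIF, fell by 2.38. Csf2 (GM-CSF) rose by 3.91, with its highest values in PD7591. Il33 and Ccl20, an epithelial alarmin and a chemokine, fell by 4.27 and 5.80.

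Promoters were searched for the letters of the AP-1 motif. RefSeq promoter sequences (build GRCm38.p6) matched 10542 of the 13827 genes by symbol, and the 250 bases before each start were searched on both strands for TGACTCA. The motif was in the promoters of 82 of 879 genes higher by at least 1 (9.33%) and 90 of 1253 lower by as much (7.18%), against 303 of 8410 other tested genes (3.6%) and 5.16% of all 27025 genes in the promoter table. A match is a description of letters, not of a bound site. The 120 bases before the start of Il11 (1 of its 2 RefSeq starts, chr7:4778142-4778261) and of Olr1 (chr6:129507166-129507285), both on the minus strand, are shown since they are among the deepest rises that hold it; capitals mark the motif, here read on its reverse strand.
Il11: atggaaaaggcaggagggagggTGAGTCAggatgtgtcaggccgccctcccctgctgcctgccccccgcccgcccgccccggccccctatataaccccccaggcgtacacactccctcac
Olr1: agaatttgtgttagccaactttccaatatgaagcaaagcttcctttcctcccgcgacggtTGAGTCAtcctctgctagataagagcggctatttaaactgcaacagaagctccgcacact
The motif began 98 and 60 bases before the start. Olr1, a scavenger receptor for oxidised lipoprotein, went from a median of 0.183 (0 to 0.603) to a median of 31.3 (18.3 to 46.2) CPM (7.20 ± 0.72). Of the AP-1, EGR and early gene list 16 of 41 rose and 9 fell, with Ier3, a stress-induced survival gene, up by 2.85, and Dusp4, a phosphatase that dampens MAP kinases, up by 2.17.

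Genes best known from neurons formed the list with the highest median of the 54 (1.36 over its tested members). Of 58 neurotrophin, neuronal adhesion and synapse genes listed, 33 passed the low-count filter. Of these 20 rose, 19 of them by at least 1, and 4 fell. A gene near 0 with DMSO passed the filter only where another group was higher, so this count and median can lean towards risers. Uchl1, a deubiquitinase abundant in neurons, went from a median of 4.98 (3.14 to 8.53) to a median of 91.3 (51.5 to 122) CPM (4.15 ± 0.31). Nes (nestin, an intermediate filament of progenitors) rose by 3.60, with PD7591 the highest line under both treatments. Homer3, a synaptic scaffold, rose by 1.55.

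Axon guidance genes moved both ways, 24 up and 16 down of 54. Sema7a, a membrane-anchored semaphorin, went from a median of 0.364 (0.174 to 0.768) to a median of 44.9 (33.8 to 59.6) CPM (log2 fold change 6.79 ± 0.33, adjusted p = 9.3e-12). The semaphorin receptor Plxnd1 rose from a median of 43.7 (30.2 to 76.5) to a median of 337 (258 to 590.2) CPM (2.88), the ephrin Efnb1 rose by 1.66, and the plexin Plxnb2, one of the most abundant changed genes by CPM, fell by 1.02.

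Some channels were close to 0 with DMSO. Piezo2, a mechanically gated channel of touch neurons, was at 0 to 0.305 CPM with DMSO and a median of 48.4 (0.415 to 95.6) CPM with TGFb (8.18 ± 0.46), with PD454 at 0.415 and 1.43 CPM and the other lines above 46 CPM under TGFb. Chrna1, the muscle acetylcholine receptor alpha subunit, went from 0 to 0.426 CPM to a median of 15.5 (13.4 to 25.5) CPM (6.99). Kcnn4, a calcium-activated potassium channel, rose by 1.47. Over the whole list of 56 ion channel genes more fell (26) than rose (14).

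**Figure D4:**
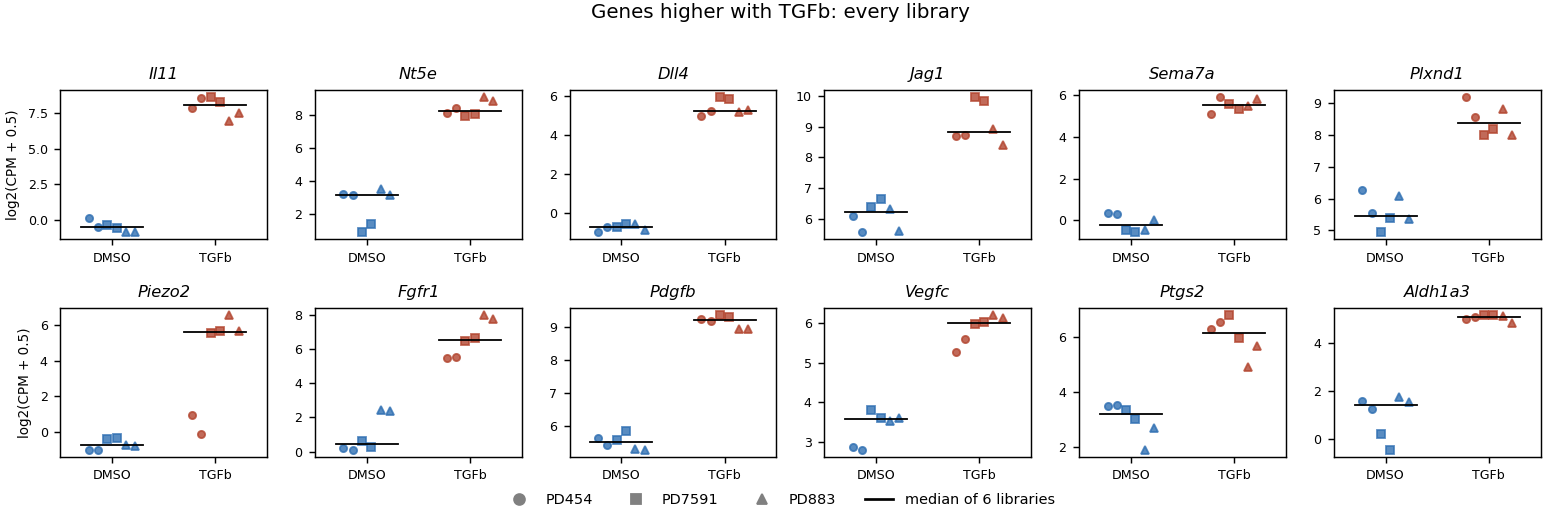
Level of 12 genes that were higher with TGFb, in each DMSO (blue) and TGFb (red) library, as log2 of CPM plus 0.5, with circles, squares and triangles for PD454, PD7591 and PD883 and a bar at the median of 6 libraries. In every panel the 6 TGFb libraries lie above the 6 DMSO libraries; for Piezo2 the 2 PD454 libraries lie far below the other TGFb libraries.

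The Notch ligand genes Dll4 and Jag1 rose, and the receptor gene Notch1 fell less clearly. Dll4, a ligand best known from sprouting vessels (GRCm38.p6 chromosome 2, 119325784 to 119335666), went from 0 to 0.174 CPM to a median of 36.9 (30.1 to 60.4) CPM (log2 fold change 8.68 ± 0.26, adjusted p = 5.48e-14), rising by 9.02, 8.62 and 8.43 in PD454, PD7591 and PD883. Jag1, another ligand, rose from a median of 73.5 (46.7 to 100.4) to a median of 457 (341 to 1008) CPM (3.03 ± 0.26). Nrarp, a feedback gene that Notch activity induces, rose by 1.76, and Notch1 fell by 1.26. The groups of Notch1 overlapped, at 67 to 135 CPM with DMSO and 25.8 to 77.5 CPM with TGFb. It was not called in the edgeR test within PD454 (-0.63, adjusted p = 0.214). In all, 10 of 25 Notch and Hedgehog genes rose and 4 fell.

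Wnt genes exchanged members: 18 of 42 rose and 13 fell. Lgr4 and Lgr5, receptors for the R-spondins that strengthen Wnt signals in stem cells, fell by 2.57 and 4.23, whereas their relative Lgr6 rose from a median of 0.309 (0.0549 to 0.746) to a median of 29.6 (7.66 to 39.2) CPM (5.95 ± 0.34). Among the ligands Wnt4 fell by 4.78 and Wnt10a by 2.76, and Wnt7b rose from a median of 89.6 (61.3 to 132) to a median of 636 (572 to 792) CPM (2.82). The frizzled receptor Fzd5 fell by 2.65.

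Growth factor receptors exchanged members too. Fgfr1, the FGF receptor typical of mesenchyme (GRCm38.p6 chromosome 8, 25518759 to 25575718), went from a median of 0.855 (0.571 to 4.9) to a median of 93 (44.1 to 259) CPM (log2 fold change 6.06 ± 0.22, adjusted p = 2.95e-13), while Fgfr2, typical of epithelia, fell from a median of 15.8 (9.09 to 78.3) to a median of 1.27 (0.232 to 2.49) CPM, by 4.35, and the ligand Fgf1 fell by 5.40. Fgfbp1, which releases stored FGF from the matrix, had 1431 counts with DMSO and 8 with TGFb. In the ERBB family Egfr rose by 1.61 and Erbb3 fell by 4.17, and of their ligands Hbegf rose by 2.76 and Tgfa fell by 1.60. In the list of FGF, IGF, HGF, PDGF, VEGF and endothelin ligands and receptors 15 of 47 tested members rose (31.9%) and 18 fell (38.3%). Among the risers, with no overlap, Pdgfb went from a median of 45.3 (38.6 to 57.1) to a median of 598 (489.7 to 669) CPM (3.66 ± 0.21). Pdgfa rose by 3.36 and Vegfc, a lymphatic growth factor, by 2.56, also with no overlap.

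Of 20 tested genes in the list of prostaglandin synthesis and receptors 5 rose (25%, against 24.3% of all genes). In the same list 7 fell (35%, against 26.5%), or 4 without PD883. Pla2g4a, which frees arachidonic acid, rose by 1.63, and Ptgs2 (cyclooxygenase-2) from a median of 8.66 (3.25 to 11.1) to a median of 69.3 (29.7 to 110.3) CPM (3.14 ± 0.25). Hpgd, which breaks prostaglandins down, fell by 2.91 at a low level, from a median of 1.18 (0.426 to 3.91) to a median of 0.188 (0.0528 to 0.79) CPM, with groups that overlapped.

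Targets of YAP and TAZ, the mechanosensitive coactivators, rose in 17 of 31 tested members and fell in 2. Ankrd1 rose from a median of 109.5 (77.5 to 146) to a median of 746 (329.5 to 900.1) CPM (2.70), and Nt5e (CD73, which makes adenosine at the cell surface) from a median of 8.37 (1.33 to 10.9) to a median of 308 (241 to 548) CPM (6.03 ± 0.31). Of the TEAD factors that bind DNA for them, Tead2 rose by 2.89 and Tead4 fell by 2.08; neither pair of groups overlapped. Mkl1, the actin-sensing coactivator of SRF, rose by 1.53, and Rhoq, a small GTPase, by 2.91, while the exchange factor Arhgef26 fell by 3.62. Msn (moesin, which ties actin to the membrane) and Tuba1a (an alpha tubulin) were among the most abundant changed genes by CPM and rose by 1.65 and 1.36; so did Lgals1, Igfbp4 and Tmsb10, by 1.13, 1.10 and 1.05, and Ahnak, a giant scaffold protein, fell by 1.02.

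Muscle genes rose in 20 of 45 tested members and fell in 11. Tnnt2 (cardiac troponin T) went from a median of 22.1 (15.8 to 35.7) to a median of 149 (116 to 203) CPM (2.76 ± 0.20) and Fbxo32 (atrogin-1, a ubiquitin ligase of muscle wasting) rose by 3.61. Cdh15, the muscle cadherin, had 3 counts with DMSO and 716 with TGFb, a ratio of 225.1 (exact 95% interval 76.71 to 1094, and 141.4 without PD7591 to 513.5 without PD454), and Mdfi, an inhibitor of myogenic factors, had 4 and 1006. Smooth muscle and pericyte markers also summed to more with TGFb, as given above. Mcam (86 counts with DMSO, 3260 with TGFb) carried that sum, with Acta2 (69 and 555) highest in PD454. Myh11 (14 and 13), Rgs5 (7 and 9) and Lmod1 (21 and 23) were near 0 in both groups, and Notch3 had fewer counts with TGFb (743 and 477).

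Several of the deepest rises and falls lay in genes of no program listed above. Srpx2, a secreted protein linked to vessel growth, had 0 counts in the 6 DMSO libraries and 1677 with TGFb, so that TGFb was at least 527.2-fold higher when the DMSO group as a whole is set to 3 counts. The PD7591 libraries held 33.2 and 40.1 CPM and the other 4 TGFb libraries 1.81 to 3.23 CPM. The bound was 319.7 without TGFb PD7591 library 6 and 72.79 without PD7591. Fam167a had 1 and 1366 counts, a ratio of 1288 (exact 95% interval 230.8 to 50920). Its 1 DMSO count lay in PD454, and without that line the rise was at least 220.4-fold. Adgra1, an adhesion G protein-coupled receptor, was at a median of 18.1 (14.4 to 39.7) CPM with TGFb and at or under 0.18 CPM with DMSO, and Lsp1, an actin-binding protein of leukocytes, at a median of 22 (7.13 to 52.1) CPM and at or under 0.349 CPM. Rgs16, which shortens G protein signals, rose by 7.19, or by 4.17 without PD7591, the line that held up to 167 CPM. Lrrc26, a subunit of potassium channels in secretory cells, fell from 1244 counts to 1, a ratio of 1319 (236.3 to 52140). PD883 held most of these counts, and without it TGFb was at least 83.15-fold lower (292 counts against 0). Pik3c2g, a lipid kinase of liver and gut, fell by 8.84, and Rbm47, an RNA-binding protein of epithelia, by 4.19, from a median of 202 (116 to 249) to a median of 9.65 (3.91 to 22.2) CPM.

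Enzymes that finish collagen were mostly higher: 15 of 23 genes for procollagen processing were higher and 5 lower (3 without PD7591). Adamts14 and Adamts2, which cut the amino-terminal propeptides, rose by 3.81 and 4.66. The groups of Adamts2 overlapped: it was at 18.5 and 24.1 CPM with TGFb in PD7591, and in PD883 at 0 with DMSO and at 0.139 and 0.0505 CPM with TGFb, where it was not called (adjusted p = 0.0652). For traffic from the endoplasmic reticulum to the Golgi 12 of 37 rose and 3 fell (7 rose without PD7591).

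The 3 lines shared most of the response. In a test on 2 degrees of freedom the TGFb effect differed between lines for 727 genes (5.26% of those tested), and 460 of these still had the same sign in each line. Within single lines 2050 genes rose and 2232 fell in PD454 (14.8% and 16.1%), 2445 and 2785 in PD7591 (17.7% and 20.1%), and 2546 and 2766 in PD883 (18.4% and 20%), and 2493 genes were called in all 3 lines with the same sign. The genes described here are 6 of the 8 with the smallest p in that test. The glucuronosyltransferases Ugt1a6a and Ugt1a6b share most of their sequence, so reads may be split between them. They gave -1.44 and -1.58 in PD454, -6.12 and -5.26 in PD7591, and -5.07 and -5.51 in PD883. Without PD454 their values over the other lines were -5.30 and -5.42. Wnt10a fell by 1.04, 5.02 and 3.01 in PD454, PD7591 and PD883. Chst2, a sulfotransferase of glycans, rose by 5.31 in PD454, 1.12 in PD7591 and 4.11 in PD883. Col7a1 (anchoring fibril collagen) rose by 4.06 in PD454, 5.06 in PD7591 and 7.17 in PD883. Serpinb9b, a serine protease inhibitor, had opposite signs between lines, with -2.78, -0.16 and 0.43 in PD454, PD7591 and PD883, and was not called over the lines together (-0.82, adjusted p = 0.0729). It was called at -1.42 with limma-voom (adjusted p = 0.00116), at -0.84 in a fit with a mean for each group (1.43e-06), at -1.46 without PD883 (0.0144), at -0.96 without DMSO PD883 library 8 (0.0453) and at -0.97 without TGFb PD7591 library 5 (0.0446).

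**Figure D5:**
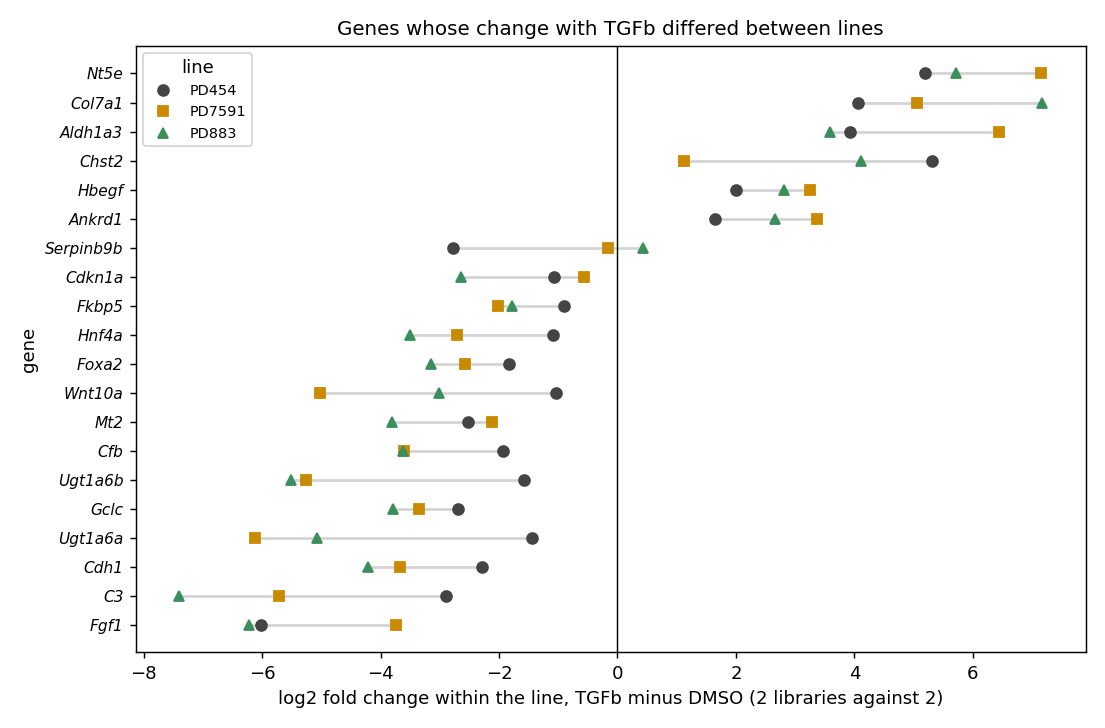
Log2 fold change of TGFb minus DMSO within each line (2 libraries against 2) for 20 genes whose change differed between lines, with circles for PD454, squares for PD7591 and triangles for PD883, a grey line over their range, and a vertical line at 0. Most of these 20 genes keep their sign in the 3 lines and differ in size, and Serpinb9b lies on both sides of 0. They come from the genes named in the text, most of them picked for a call or a shared sign. Of all 727 line-dependent genes 460 had the same sign in each line.

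Against ionomycin, in a contrast of the same 6 TGFb libraries with the 6 ionomycin libraries from the fit over all 18, 4409 genes were higher with TGFb (31.9%) and 4287 lower (31%). The amino acid and stress response list stood lower with TGFb than with ionomycin in 30 of 32 tested members, Stc2 by 6.39 on the log2 scale. Such a gap also holds any change with ionomycin. Against DMSO, Stc2 was higher by 2.91 with ionomycin and lower by 3.48 with TGFb. Chaperones of the endoplasmic reticulum were lower in 17 of 27. Sterol genes were higher with TGFb in 18 of 28 members and lower in 3, although most sterol genes that differed from DMSO were lower. Respiratory chain genes were higher in 14 of 35 and lower in 0. The contrast with ionomycin was not repeated with libraries or lines left out, so no direction is read from that list here either. Il11 and Dll4 were higher with TGFb than with ionomycin by 8.49 and 8.10, Fgfr1 by 6.08 and Clu by 3.57. Hmox1 and Lig1 did not pass the test between the 2 treatments (-0.08 ± 0.27 and -0.06 ± 0.13).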

How the data were processed

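Per the submitters' processing notes, reads were handled with CASAVA and Trimmomatic 0.32, aligned with STAR to mm10 and counted with featureCounts. For settings, strand mode and annotation the sources used here give nothing, so overlapping and antisense genes cannot be told apart. The values are whole-number counts per gene, deposited by the authors as a single table, and 26 entries with date-like names (19 tested) are not named. Counts were fitted in edgeR 4.0.16 (R 4.3.3) by the robust quasi-likelihood test with TMM factors, filterByExpr over the 9 groups, and treatment and line as terms, over all 18 libraries. Line dependence was tested in a fit with a mean for each group. Calls use an adjusted p under 0.05. The code was tested on simulated data. Alternatives included DESeq2 1.42.0, limma-voom (limma 3.58.1), other factors and left-out libraries and lines. Intervals and floors cover counting error only.

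The comparison, gene lists and members were chosen with earlier results of these data known. Genes were named by rule: the 15 largest rises and falls with a mean of at least 2 CPM, the 10 most abundant changed genes, up to 4 members in each direction per list by p, the 8 most line-dependent genes, and a fixed panel, of which a part is named. Hnf4a, Foxa2, C3, Mt1, Mt2, Fkbp5, Nr3c1, Lgr5, Fgfr2 and Cldn4 were added after their values were seen. No 2 duplicate libraries agreed within counting noise (chi-square per degree of freedom 4.79 to 86.8). The motif search used the 250 bases before each start.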

Additional observations from a re-analysis of the deposited data

Results flagged for a closer look

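For 20 of the genes named, the change with TGFb differed between the 3 lines in the test on 2 degrees of freedom (edgeR quasi-likelihood, adjusted over all genes), and in 1 of them, Serpinb9b, the lines took opposite signs. Most named genes were picked for a call or a shared sign, so these 20 do not stand for all line-dependent genes. Of those 727 genes, 460 had the same sign in each line. The adjusted p was 4.14e-06 for Chst2, 4.28e-06 for Ugt1a6a, 4.28e-06 for Serpinb9b, 4.52e-06 for Ugt1a6b, 1.66e-05 for Wnt10a and 9.28e-05 for Col7a1, whose values by line stand above. Among genes of plasma proteins and foregut identity it was 0.000424 for Cfb, 0.000681 for C3, 0.000592 for Hnf4a and 0.0163 for Foxa2.

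Among secreted and surface proteins the adjusted p was 0.000832 for Fgf1, 0.00269 for Nt5e, 0.0165 for Hbegf and 0.045 for Cdh1. It was 0.0052 for Ankrd1, 0.00655 for Gclc, 0.00655 for Cdkn1a, 0.0129 for Aldh1a3, 0.04 for Mt2 and 0.0448 for Fkbp5. Groups of 2 libraries are too small for a test of single outlying libraries.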

How the results depend on the processing

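Depth limits the low genes most: where a group holds under about 3 counts only a bound or a counting interval is given. Over the named genes and alternatives, 4319 values kept their direction and their side of the threshold, 40 lost the call, 8 gained it and 1 changed sign: Serpinb9b gave 0.10 without PD454. Without the line term Ctse, Gata4 (adjusted p = 0.18 each) and Chst2 (0.0558) lost the call. The 7015 genes called became 4646 with duplicates summed and 1752 when a fold beyond 2 was required (glmTreat). Higher genes numbered 2193 with no line term, 2116 with duplicates summed and 743 with glmTreat, and lower genes 1009 with glmTreat. The share of calls that were higher was 47.8%, and 42.4% with glmTreat. Leaving out single libraries gave 6484 to 7444 called genes, 3156 to 3800 higher and 3326 to 3698 lower. The 727 line-dependent genes became 1391 with no low-count filter, 421 in the 12 libraries alone and 403 to 1069 when single libraries were left out. It was 446 without DMSO PD454 14, 470 and 437 without DMSO PD7591 1 and 2, 429 without TGFb PD454 17, and 403 and 442 without TGFb PD7591 5 and 6. The cause of these shifts was not tested. The line was a term of the fit, and with duplicates summed the 3 lines made 3 pairs of TGFb and DMSO. Single libraries within a line were not paired, since the groups share no library numbers.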
